A study of Homo sapiens with 13 samples.

Results

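Silencing of SOX9 in DLD-1 cells was compared here with a control siRNA, across gene classes of receptors, enzymes, transporters, matrix proteins, regulators and non-coding transcripts. DLD-1 is an established human colorectal adenocarcinoma cell line, of Dukes' type C per the labels. The comparison covers 7 of the 13 RNA samples of the series: 3 with control siRNA (siCtrl, 2 from experiment 1 and 1 from experiment 2) and 4 with SOX9 siRNA (siSOX9, 3 from experiment 1 and 1 from experiment 2). Both groups received 50 nM of siRNA with the reagent INTERFERin and were harvested after 72 h, so they share the transfection and differ in the siRNA. The members are all 18747 genes with reads in the authors' table for this comparison, of 23886 symbols listed there. The remaining 6 samples belong to a knockdown of Y14, a protein of the complex left at exon junctions after splicing, with its own 2 siCtrl samples in experiment 3 and 2 samples for each of its siRNAs, numbered 9 and 10. A single cell line was used, and the sequence or number of the SOX9 siRNAs is not stated in the sources used here. The labels do not say that the samples came from separate cultures, so p-values measure only the spread between these libraries, which may be technical.

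SOX9 is a transcription factor of the SOX family, whose HMG box binds the minor groove of DNA at a short A/T-rich element and bends it. In the intestine it is made in the lower crypt, where stem and progenitor cells lie, and it is needed for Paneth cells. It is also a driver of cartilage formation, and its gene responds to Wnt signalling in the gut epithelium.

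The values per arm are means of normalised read counts, each library being scaled by its own size factor. A log2 ratio below is the log2 of the siSOX9 mean over the siCtrl mean, and a gene is called where its adjusted p in the authors' deposited table is 0.05 or less. The reads of single libraries were recovered for 13239 genes (70.6%), nearly all with arm means up to 2000, and these genes were also tested with limma-voom. Recovered libraries carry no sample name, and letters order them by depth within an arm. Library a of each arm was far deeper than the others, at an estimated 179 M counts for siCtrl and 184 M for siSOX9, against 24.8 to 41.7 M for the other 5. Over 6034 genes the deviations of these 2 libraries from their own arm's mean had a correlation of 0.89. Each arm has 1 sample of experiment 2, but whether library a is that sample cannot be told from the files. With all 7 libraries limma-voom called 609 genes higher (7.44% of 8184) and 850 lower (10.4%), and without both deepest libraries 1001 higher and 1374 lower. With a term for depth class, which sets the deepest library of each arm against the rest, it called 1896 and 1945. The estimates below are without that term, which moved none of the 162 recovered genes chosen by the naming rule by more than 0.19 (log2). Library values are given for the genes on which a result turns.

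The target fell: the SOX9 mean was 24468 in siCtrl and 9067 in siSOX9, a log2 ratio of -1.43, and the authors' deposited table lists an adjusted p of 1.40e-04. The reads of single libraries were not recovered for SOX9, because the search did not reach means of that size. Colon epithelial markers were present, with 9 of 10 at a mean of 10 or more and a summed mean of 347656 in siCtrl and 306009 in siSOX9, while CDX1 was close to 0 in both arms. Of these markers 2 were called, both lower. VIL1, the microvillus protein villin, fell from 4545, 4698 and 4004 to 2113, 1974, 1976 and 1656, and CEACAM5, the carcinoembryonic antigen, from 49.3, 61.3 and 54 to 10.9, 16.1, 16.8 and 10.4. The arms did not overlap for either gene. Of 6 immune markers 2 reached a mean of 10 (CD14 and CD68), with PTPRC close to 0 and a summed mean of 176 in siCtrl and 159 in siSOX9. Of 4 endothelial markers 1 did (VWF), with KDR at 0 and a summed mean of 38.7 and 31.2.

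Across all genes with reads, 224 were called higher after SOX9 knockdown (1.19%) and 426 lower (2.27%). The median log2 ratio of the 13649 genes with an overall mean of at least 10 was 0.01, and the middle 50% of them lay between -0.16 and 0.17. As in any bulk RNA, fewer cells of a kind and less RNA per cell cannot be told apart in these values. Of the 2159 genes with an overall mean above 10 and up to 100, 51 were called higher (2.36%) and 39 lower (1.81%). Both shares were largest among the 3442 genes above 100 and up to 1000, with 99 called higher (2.88%) and 151 lower (4.39%). Of the 7090 genes above 1000 and up to 10000, 59 were called higher (0.832%) and 209 lower (2.95%).

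**Figure D1:**
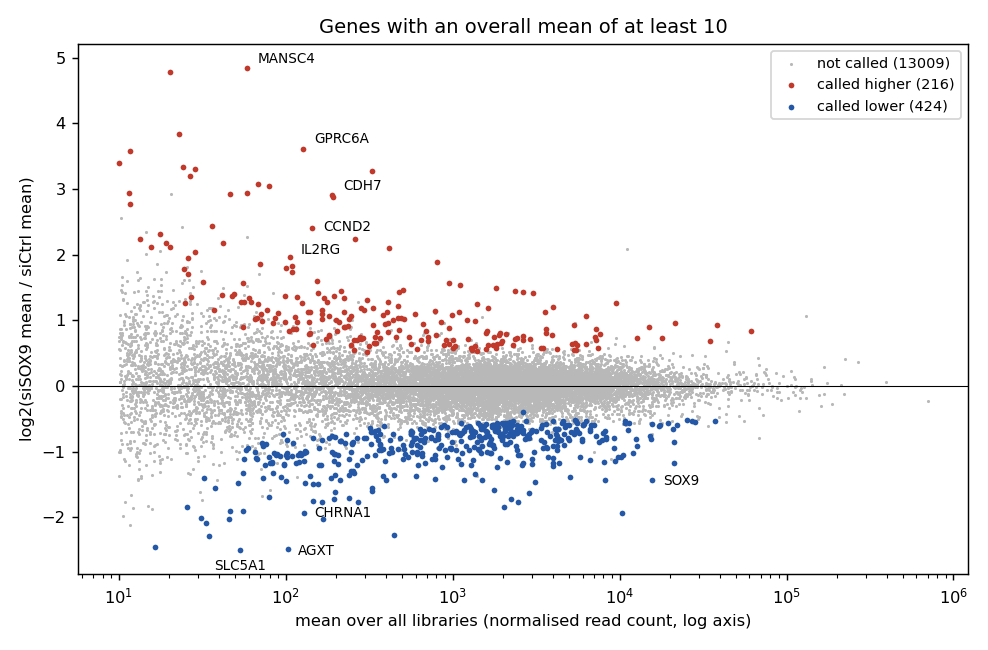
The log2 ratio of each gene with an overall mean of at least 10 (vertical axis) against its mean over all libraries (horizontal log axis). Red points were called higher (216) and blue points lower (424). Ratios spread more widely at low means, and calls in both directions reach means above that of SOX9.

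Some genes close to silence in siCtrl reached a clear level in siSOX9. Named first are called genes with an overall mean of at least 50 and large log2 ratios, and several called genes below that mean had ratios as large. Genes such as MANSC4 and LRP2 pass that mean only through their siSOX9 values. Their low siCtrl and clear siSOX9 levels are therefore in part set by the choice. Separate arms and limma-voom values describe the chosen genes and are no independent support. MANSC4 stood at 4.35, 4.09 and 2.08 normalised counts in siCtrl libraries a to c and at 112, 109, 79.2 and 102 in siSOX9 libraries a to d. GPRC6A, a receptor that senses amino acids, had 24.1, 15 and 12.5 against 260, 198, 184 and 197. LRP2, the endocytic receptor megalin, had 12.8, 20.4 and 6.23 against 127, 96.3, 113 and 104. The arms did not overlap for any of these 3 genes. The limma-voom estimates were 4.64 ± 0.32 (SE, log2), 3.47 ± 0.28 and 3.14 ± 0.29, with adjusted p of 4.43e-05, 9.07e-05 and 1.48e-04.

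CDH7, a classical cadherin, rose from 43.8, 46.3 and 31.1 to 255, 319, 345 and 286. IQGAP2, a scaffold that binds actin and small GTPases, rose from 49, 44.9 and 31.1 to 287, 314, 325 and 294. FERMT2, which encodes the integrin activator kindlin-2, had 13.9, 17.7 and 14.5 in siCtrl and 88.9, 103, 155 and 164 in siSOX9. Every siSOX9 library lay above every siCtrl library for all 3 genes, and the limma-voom estimates were 2.77 ± 0.19, 2.74 ± 0.16 and 2.86 ± 0.34 (SE). CCND2, which encodes the G1 cyclin D2, rose from 48.7, 49 and 27 to 254, 182, 239 and 209 (limma-voom 2.34 ± 0.22, adjusted p = 1.48e-04). IL2RG, the common gamma chain of several interleukin receptors, TG, the thyroglobulin gene, and HIST1H3H, a histone H3 gene with near-identical copies among which reads can be split, had log2 ratios of 1.96, 1.85 and 2.94.

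Genes of uptake, glyoxylate metabolism and signalling were among those that fell. SLC5A1, the sodium-glucose cotransporter of the intestine, went from 87, 124 and 89.3 in siCtrl to 18.7, 18.5, 8.42 and 24.9 in siSOX9. AGXT, a peroxisomal aminotransferase that removes glyoxylate, went from 157, 207 and 216 to 35, 39.5, 30.3 and 33.2. CHRNA1, a subunit of the muscle-type acetylcholine receptor, went from 214, 241 and 210 to 58.7, 60.5, 60.7 and 51.8. No siSOX9 library reached the lowest siCtrl library for these 3 genes. Their limma-voom estimates were -2.43 ± 0.27, -2.35 ± 0.19 and -1.90 ± 0.13 (SE), with adjusted p of 3.56e-04, 9.07e-05 and 4.10e-05. HR, the hairless corepressor, and the uncharacterised LOC100127888 had log2 ratios of -1.73 and -1.90.

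Promoter sequences were read for the genes named over all classes, because SOX9 binds a known short element. RefSeq windows (GRCh38.p14, 250 bases before to 50 after the gene start) were matched for 13 of these 20 genes, and 2 of them held ACAATG or ACAAAG on either strand. These are CDH7, called higher, at chr18:65750002-65750301 on the plus strand, and AGXT, called lower, at chr2:240868574-240868873 on the plus strand. Capitals mark the matched letters, which in AGXT lie on the opposite strand.
CDH7: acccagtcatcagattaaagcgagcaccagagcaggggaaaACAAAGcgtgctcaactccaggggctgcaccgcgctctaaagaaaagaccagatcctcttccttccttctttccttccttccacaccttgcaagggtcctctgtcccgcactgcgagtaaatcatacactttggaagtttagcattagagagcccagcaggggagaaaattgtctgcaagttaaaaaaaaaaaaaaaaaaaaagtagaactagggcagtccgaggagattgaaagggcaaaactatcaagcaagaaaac
AGXT: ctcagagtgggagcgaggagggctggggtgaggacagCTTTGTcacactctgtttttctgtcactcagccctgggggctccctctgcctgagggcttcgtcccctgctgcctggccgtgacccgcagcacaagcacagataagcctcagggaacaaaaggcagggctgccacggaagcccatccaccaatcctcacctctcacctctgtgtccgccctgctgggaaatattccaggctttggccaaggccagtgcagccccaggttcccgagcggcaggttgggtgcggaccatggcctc

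Such matches were common. They were found in 36 of 168 promoters of genes called higher (21.4%) and in 64 of 336 of genes called lower (19%). Among all genes with reads and a promoter, the set that holds these called genes, 2499 of 13898 had a match (18%). The counts were 1691 of 10685 for genes at a mean of 10 or more (15.8%) and 6725 of 27305 for all RefSeq promoters (24.6%). A match in these letters is a description of the window and not a site bound by SOX9, and no binding was measured here.

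The genes were then grouped by family and function into 82 classes, which held 6947 genes with reads and 255 of the 650 calls. In 11 classes no member was called. Class medians were small throughout: among classes with at least 10 members at a mean of 10 they ran from -0.24 to 0.29. The arms of recovered libraries did not overlap for 13.2% of all 8184 tested genes in the higher direction and for 15.6% in the lower one. Among the 496 called genes with recovered reads 494 did not overlap, and limma-voom called all 486 of them that it tested. Separate arms and limma-voom values of called genes come from the same libraries as the calls. They describe those genes and are no independent support.

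**Figure D2:**
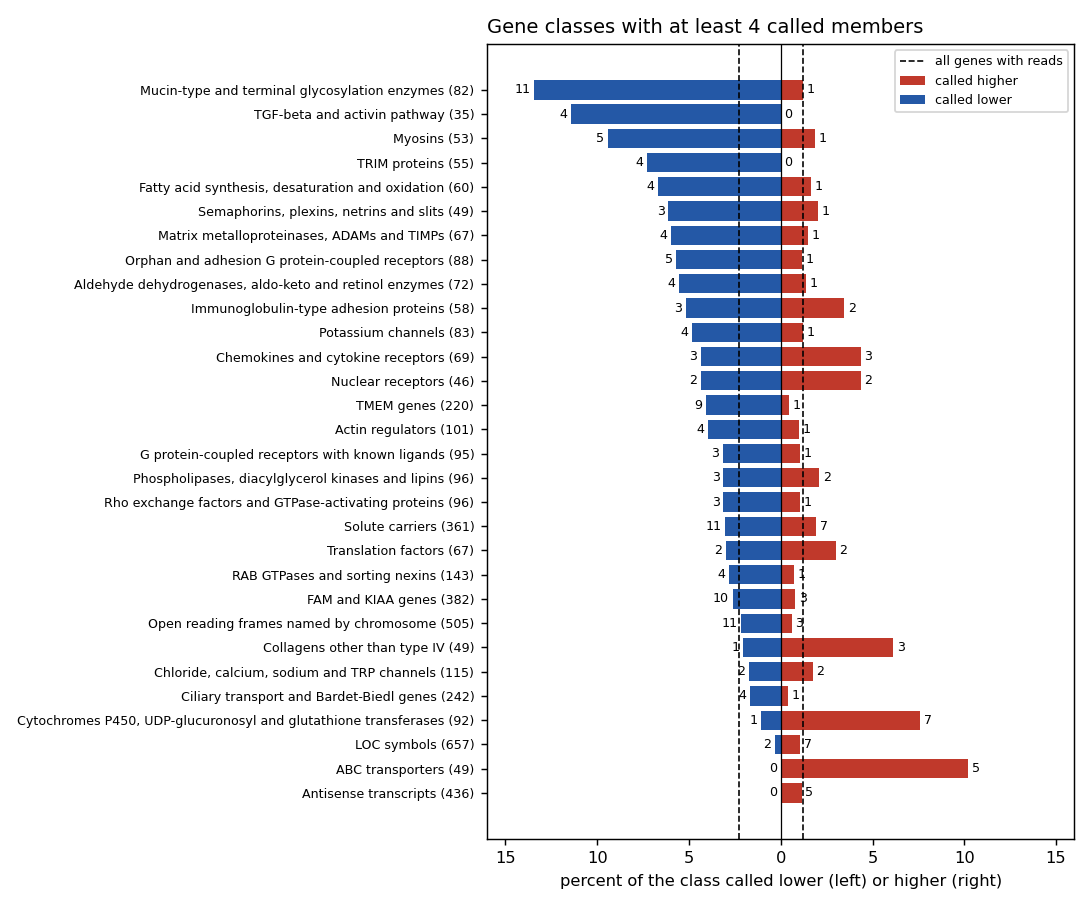
Percent of the genes with reads in each class that were called lower (blue, left) or higher (red, right), for classes with at least 4 called members. Numbers at the bars are the called members, numbers in brackets the genes with reads, and dashed lines the share among all genes (2.27% lower and 1.19% higher). Mucin-type and terminal glycosylation enzymes reach furthest to the left (11 of 82) and ABC transporters furthest to the right (5 of 49).

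**Figure D3:**
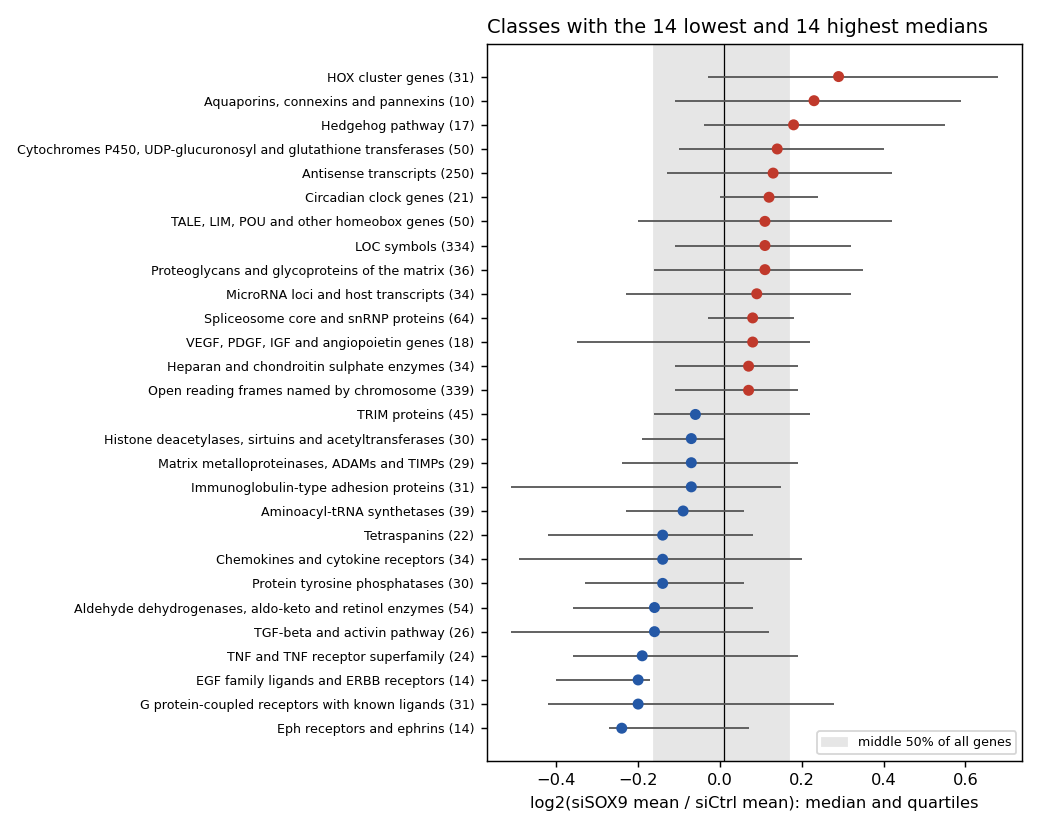
Median log2 ratio (points) and quartiles (lines) of the classes with the 14 lowest and 14 highest medians, over members with a mean of at least 10, whose number is in brackets. The grey band holds the middle 50% of all genes, from -0.16 to 0.17, and HOX cluster genes (0.29) and Eph receptors and ephrins (-0.24) mark the ends.

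Enzymes that build and cap the glycans of mucins and surface proteins held the largest share of called falls among classes with at least 4 called members. Of 82 members with reads 11 were called lower (13.4%) and 1 higher (1.22%), beside 2.27% and 1.19% of all genes. The median of the 59 members with a mean of at least 10 was -0.04, close to the 0.01 of all genes. By limma-voom 4 of 41 recovered members were called higher and 10 lower, beside 7.44% and 10.4% of all 8184 genes tested. Without both deepest libraries these were 5 and 16, beside 1001 and 1374 of the 8184. FUT3, the fucosyltransferase that makes Lewis antigens, had 224, 278 and 330 normalised counts in siCtrl and 71.3, 90.2, 80.9 and 82.9 in siSOX9. ST6GALNAC1, which makes the sialyl-Tn antigen, had 192, 302 and 237 against 72.7, 80.3, 59 and 76.7. The arms did not overlap, and the limma-voom estimates were -1.72 ± 0.17 and -1.63 ± 0.19 (SE), with adjusted p of 2.06e-04 and 5.09e-04. GALNT7, a transferase of mucin-type glycosylation, fell from a mean of 5950 to 2560, and MGAT5, which branches N-glycans, from 14800 to 7126. For these 2 genes the authors' deposited table lists adjusted p of 7.42e-04 and 3.74e-07. The other members called lower were the sialyltransferases ST6GAL1, ST3GAL4 and ST3GAL3 (log2 ratios of -1.91, -0.83 and -0.78), B4GALT5 (-0.97), B3GNT3 (-0.88), FUT1 (-0.78) and GALNT12 (-0.76). GCNT4, a core 2 branching enzyme, was the 1 member called higher, from a mean of 3.93 to 39.7.

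Calls among transporters and channels went both ways, and those among ABC transporters went one way. Of 49 ABC genes with reads 5 were called higher (10.2%) and 0 lower, beside 1.19% and 2.27% of all genes, while the median of 37 was 0.04. By limma-voom 3 of 20 recovered members were called higher and 1 lower, beside 7.44% and 10.4% of all 8184 genes tested. Without both deepest libraries these were 3 and 4, beside 1001 and 1374 of the 8184. ABCC2, the export pump for organic anion conjugates, had 53.9, 49 and 81 in siCtrl and 187, 136, 155 and 153 in siSOX9 (limma-voom 1.54 ± 0.19, adjusted p = 6.24e-04). ABCG2, a xenobiotic exporter that also marks side-population cells, had 284, 268 and 255 against 701, 536, 645 and 620 (limma-voom 1.21 ± 0.12, adjusted p = 2.02e-04). No library of one arm reached the other for either gene. ABCB1, the multidrug transporter P-glycoprotein, rose from a mean of 4902 to 8927, and the authors' deposited table lists an adjusted p of 3.43e-04. ABCB6, a porphyrin transporter, and ABCC5, which exports cyclic nucleotides, had log2 ratios of 0.78 and 0.56.

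Among 361 solute carriers 7 were called higher (1.94%) and 11 lower (3.05%), near the 1.19% and 2.27% of all genes, with a median of -0.02. Beside SLC5A1, falls were called for SLC2A12, a glucose transporter (162, 127 and 145 against 63.2, 58.1, 50.5 and 49.7), and for SLC41A3, of a family of magnesium carriers (2906, 2740 and 2692 against 1394, 1360, 1146 and 1279). SLC4A5, a sodium bicarbonate cotransporter, rose from 54.5, 46.3 and 54 to 122, 137, 138 and 137, and the lysosomal amino acid transporter SLC36A1 rose from a mean of 1344 to 2304. The arms did not overlap in SLC2A12, SLC41A3 or SLC4A5. Of 83 potassium channel genes 1 was called higher (1.2%) and 4 lower (4.82%). KCNE3, the beta subunit that keeps KCNQ1 open in colon epithelium, fell from 2649, 2948 and 2667 to 1197, 1182, 1201 and 1127. Its limma-voom estimate was -1.22 ± 0.08, with an adjusted p of 3.17e-05, and its arms did not overlap. The 2-pore channels KCNK6 and KCNK5 had log2 ratios of -0.82 and -0.72, and KCNN4, a calcium-activated channel, went from a mean of 18.5 to 1.72. KCNJ8, a subunit of ATP-sensitive channels, was the member called higher, from 282, 259 and 297 to 586, 567, 544 and 539. Among 115 chloride, calcium, sodium and TRP channel genes 2 were called in each direction (1.74%), near the shares of all genes. Of the 33 zinc transporters and metallothioneins, and of the 25 aquaporins, connexins and pannexins, 0 were called.

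**Figure D4:**
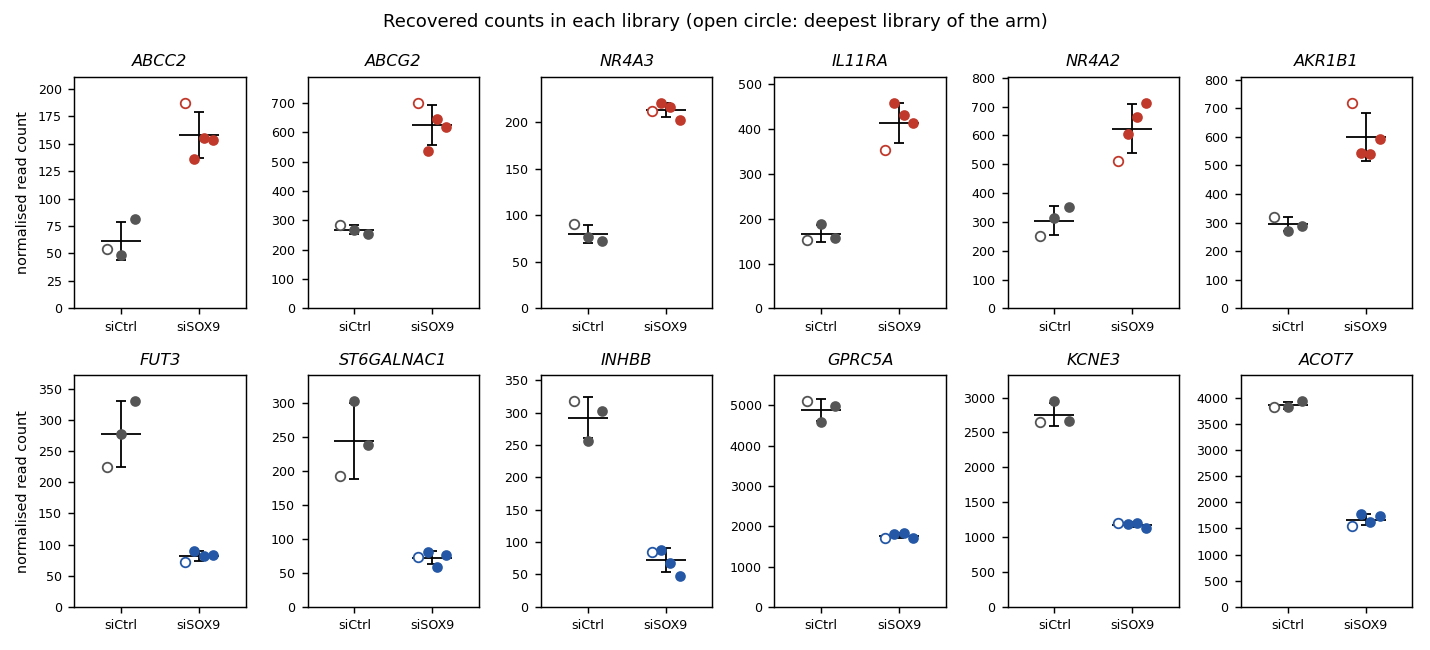
Normalised read counts in each of the 3 siCtrl and 4 siSOX9 libraries for 12 of the genes described, each panel with its own linear axis from 0. Horizontal bars and error bars are means and SD, and open circles are the deepest library of an arm. In every panel the arms are separate, with the 6 genes of the upper row higher and the 6 of the lower row lower in siSOX9. All 12 were chosen among genes called on these same libraries, so the separation is no independent support.

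Enzymes of drug and hormone metabolism were called mostly higher, and those of aldehyde, retinoid and fatty acid metabolism mostly lower. Of 92 cytochrome P450, UDP-glucuronosyl and glutathione transferase genes 7 were called higher (7.61%) and 1 lower (1.09%), beside 1.19% and 2.27% of all genes, with a median of 0.14 over 50 members. CYP24A1, which degrades active vitamin D, had 36, 39.5 and 47.7 in siCtrl and 97.9, 101, 72.4 and 62.2 in siSOX9. GSTM2, a glutathione transferase with close paralogs, had 94.3, 98.1 and 120 against 182, 222, 192 and 249. Both genes were separate between arms, with limma-voom estimates of 1.20 ± 0.21 and 1.02 ± 0.15 (SE) and adjusted p of 0.00401 and 0.00189. CYP24A1 no longer passed when siCtrl library a was left out (adjusted p = 0.0511 with limma-voom). CYP1B1, which oxidises oestrogens and polycyclic hydrocarbons, rose from a mean of 2527 to 4420, and CYP4F11 had a log2 ratio of 0.74. CYP2C18 went from a mean of 6.96 to 30.3. CYP2S1 was the member called lower and varied widely, with 1297, 2099 and 2109 in siCtrl and 433, 933, 672 and 678 in siSOX9.

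Of 72 aldehyde dehydrogenase, aldo-keto reductase and retinol enzyme genes 4 were called lower (5.56%) and 1 higher (1.39%), and the median of 54 was -0.16. RDH11, a retinal reductase, fell from a mean of 7797 to 2975, and the authors' deposited table lists an adjusted p of 4.62e-11. ALDH4A1, of proline breakdown, fell from 1189, 936 and 895 to 503, 458, 428 and 394, and AKR1C2, a steroid reductase that shares sequence with its AKR1C neighbours, from 389, 343 and 309 to 168, 190, 145 and 139. ALDH1A3, which makes retinoic acid, had a log2 ratio of -0.87. AKR1B1, aldose reductase, went the other way, from 321, 272 and 289 to 719, 543, 541 and 593 (limma-voom 1.03 ± 0.14, adjusted p = 9.35e-04). The arms were separate for all of these recovered genes. In fatty acid metabolism 4 of 60 genes were called lower (6.67%) and 1 higher (1.67%), beside 2.27% and 1.19% of all genes. The class as a whole did not lean lower, with a median of 0.02 over 56 members, 29 above 0 and 27 below. By limma-voom 2 of its 27 recovered members were called higher and 3 lower, beside 7.44% and 10.4% of all 8184 genes tested. ACOT7, which hydrolyses acyl-CoA, had 3815, 3819 and 3934 in siCtrl and 1540, 1776, 1619 and 1739 in siSOX9 (limma-voom -1.22 ± 0.08, adjusted p = 3.17e-05). ACOX2, the peroxisomal oxidase of branched chains, CPT1A, which admits fatty acids to mitochondria, and the elongase ELOVL1 had log2 ratios of -1.20, -0.71 and -0.66. ACSL6, an acyl-CoA synthetase, rose from 282, 266 and 230 to 596, 473, 467 and 456. Among 96 phospholipases, diacylglycerol kinases and lipins 2 were called higher (2.08%) and 3 lower (3.12%), near the 1.19% and 2.27% of all genes. The secreted phospholipase PLA2G2A led the falls, with 165, 304 and 278 against 65.2, 96.3, 85.9 and 106.

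In the TGF-beta and activin pathway 4 of 35 members with reads were called lower (11.4%) and 0 higher, beside 2.27% and 1.19% of all genes. The median of the 26 members with a mean of at least 10 was -0.16, and 8 of them lay above 0. By limma-voom 7 of 16 recovered members were called lower and 0 higher, beside 10.4% and 7.44% of all 8184 genes tested. Without both deepest libraries these were 9 lower and 1 higher, beside 1374 and 1001 of the 8184. INHBB, which encodes the beta B subunit of activins and inhibins, had 318, 257 and 303 in siCtrl and 84.7, 87.7, 67.4 and 47.7 in siSOX9. TGFB3, a TGF-beta ligand, had 900, 892 and 1017 against 390, 498, 440 and 454. LTBP1, which anchors latent TGF-beta in the matrix, had 1579, 1435 and 1355 against 828, 704, 762 and 684. The arms did not overlap for these 3, and the limma-voom estimates were -1.96 ± 0.17, -1.09 ± 0.11 and -0.96 ± 0.10 (SE), with adjusted p of 1.46e-04, 1.99e-04 and 2.38e-04. PMEPA1, a TGF-beta target that restrains the pathway, had a log2 ratio of -1.04.

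Of 457 receptor and ligand genes in 10 classes, that pathway among them, 6 were called higher (1.31%) and 23 lower (5.03%). The shares of all genes were 1.19% and 2.27%. Of 69 chemokine and cytokine receptor genes 3 were called in each direction (4.35%). IL11RA, the receptor subunit for interleukin 11, rose from 153, 188 and 158 to 353, 458, 430 and 412, while the decoy receptor IL1R2 fell from 373, 349 and 376 to 161, 143, 147 and 120. Their limma-voom estimates were 1.31 ± 0.14 and -1.30 ± 0.12 (SE), with adjusted p of 2.75e-04 and 1.46e-04. IL10RB had a log2 ratio of 0.63, and the chemokines CCL26 and CXCL5 had -0.99 and -0.91. Among 88 orphan and adhesion G protein-coupled receptors 5 were called lower (5.68%) and 1 higher (1.14%). GPRC5A, a retinoic acid-inducible receptor, fell from 5102, 4580 and 4990 to 1708, 1797, 1828 and 1718, with a limma-voom estimate of -1.47 ± 0.07 and an adjusted p of 1.21e-05. GPR56, an adhesion receptor, fell from a mean of 12758 to 6588, and LGR6, a receptor for R-spondins, from 251, 290 and 253 to 145, 132, 155 and 99.5. Of 95 receptors with known ligands 1 was called higher (1.05%) and 3 lower (3.16%), near the shares of all genes. The beta-1 adrenoceptor ADRB1 rose (68.7, 74.9 and 64.3 against 159, 187, 152 and 168). BDKRB1, SSTR5 and LPAR1 fell, with log2 ratios of -1.55, -1.07 and -0.90.

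Guidance receptors split, with 1 of 49 semaphorin, plexin, netrin and slit genes called higher (2.04%) and 3 lower (6.12%). The shares of all genes were 1.19% and 2.27%. NRP1, a coreceptor for semaphorins and VEGF, rose from a mean of 1565 to 4148, and the authors' deposited table lists an adjusted p of 7.75e-11. PLXNA2, a plexin that signals for semaphorins, fell from 383, 441 and 359 to 180, 172, 170 and 168 (limma-voom -1.17 ± 0.11, adjusted p = 1.48e-04). PLXNB3, another plexin, had 502, 722 and 602 against 282, 384, 241 and 311, and SEMA4B, a semaphorin, had a log2 ratio of -0.69. Eph receptors and ephrins had the lowest median of all classes with at least 10 members (-0.24 over 14), with 1 of 21 called lower (4.76%). GLI2, a transcription factor of Hedgehog signalling, was the 1 called gene of that pathway (226, 331 and 276 against 123, 141, 135 and 143), whose median was 0.18.

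Matrix and adhesion genes moved both ways, with some inhibitors of metalloproteinases lower and some fibrillar collagens higher. Of 506 cell surface and matrix genes in 10 classes, the glycosylation enzymes among them, 12 were called higher (2.37%) and 26 lower (5.14%). The shares of all genes were 1.19% and 2.27%. TIMP3, TIMP4 and TIMP2, which inhibit matrix metalloproteinases, were among the 4 of 67 genes called lower in their class (5.97%), with 1 called higher (1.49%). By limma-voom 5 of 23 recovered members of that class were called higher and 5 lower, beside 7.44% and 10.4% of all 8184 genes tested. TIMP3 had 196, 272 and 257 in siCtrl and 77.2, 119, 136 and 85 in siSOX9, and TIMP4 had 782, 789 and 762 against 495, 467, 431 and 375. The arms were separate, and the limma-voom estimates were -1.26 ± 0.21 and -0.78 ± 0.10 (SE), with adjusted p of 0.0032 and 9.21e-04. TIMP2 and the membrane metalloproteinase MMP24 had log2 ratios of -0.55 and -0.74, and ADAMTS13, which cleaves von Willebrand factor, had 0.66.

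Of 49 collagen genes and their modifying enzymes 3 were called higher (6.12%) and 1 lower (2.04%), beside 1.19% and 2.27% of all genes. COL5A2, which sets the width of collagen fibrils, rose from 108, 113 and 104 to 284, 257, 327 and 315 (limma-voom 1.42 ± 0.13, adjusted p = 1.48e-04), and PLOD3, a lysyl hydroxylase, fell from a mean of 6534 to 4025. The other 2 called higher had low means: COL1A1 went from 34.1 in siCtrl to 82.6 in siSOX9, and COL3A1 from 0.647 to 11.9. Both also belong to the 6 fibroblast markers, of which 2 had no reads (COL1A2 and LUM), 2 reached a mean of 10, and 3 were called. The summed mean of that list was 137 in siCtrl and 151 in siSOX9, with PDGFRB, a fibroblast receptor, called lower from 103 to 55.8. The part of other cells in these values was not tested, in a culture of 1 cell line.

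Adhesion proteins of the immunoglobulin type had 2 of 58 called higher (3.45%) and 3 lower (5.17%), beside 1.19% and 2.27% of all genes. The nectin genes went apart: PVRL3 rose from 103, 92.6 and 97.6 to 273, 224, 221 and 234, and PVRL1 fell from 874, 948 and 739 to 402, 464, 396 and 450. Their limma-voom estimates were 1.30 ± 0.14 and -1.02 ± 0.11 (SE), with adjusted p of 2.63e-04 and 2.87e-04. NRCAM, a neuronal adhesion protein, went from a mean of 10.3 to 55.2. Among enzymes of heparan and chondroitin sulphate CSGALNACT1, which starts chondroitin chains, fell from 131, 123 and 141 to 51.5, 33.4, 30.3 and 47.7, and the epimerase GLCE had a log2 ratio of -1.02. HAS3, a hyaluronan synthase, rose from 379, 370 and 332 to 751, 742, 824 and 756. HSPG2 (perlecan) and SDC3 (syndecan 3) had log2 ratios of -0.98 and -0.84. The tetraspanins CD81 and TSPAN1 were called lower (6.67% of 30), at -1.03 and -1.02, with 0 called higher. PI3, the elastase inhibitor elafin, rose from 33.6, 46.3 and 60.2 to 103, 168, 163 and 186.

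Of 283 transcription factor genes in 8 classes, those of the SOX family left out, 8 were called higher (2.83%) and 5 lower (1.77%), beside 1.19% and 2.27% of all genes. The orphan nuclear receptors NR4A3 and NR4A2, which are early response genes, rose. NR4A3 had 90.8, 76.3 and 72.7 in siCtrl and 212, 221, 217 and 203 in siSOX9, and NR4A2 had 252, 312 and 351 against 513, 606, 664 and 713. The limma-voom estimates were 1.34 ± 0.13 and 1.06 ± 0.15 (SE), with adjusted p of 1.86e-04 and 0.00154. FOS, an AP-1 subunit and also an early response gene, rose from 153, 184 and 158 to 321, 369, 399 and 406, and was the 1 gene of 26 called in its class. PPARG, a lipid-sensing nuclear receptor of differentiated colon cells, fell from 2147, 2041 and 1997 to 1422, 1281, 1201 and 1167. MSX2, a homeobox repressor, rose from a mean of 1739 to 2856, and the authors' deposited table lists an adjusted p of 0.0154. None of 37 forkhead genes and none of 22 clock genes was called.

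HOX genes, which pattern the body axis and keep regional expression in the gut, had the highest class median of those with at least 10 members, 0.29 over 31. Of 35 with reads 1, HOXD3, was called higher (2.86%) and 0 lower, beside 1.19% and 2.27% of all genes. HOXD3 had 5.8, 4.09 and 6.23 in siCtrl and 24.9, 29.6, 25.3 and 26.9 in siSOX9, so it reached an overall mean of 10 only through siSOX9. By limma-voom 6 of 23 recovered members were called higher and 0 lower, beside 7.44% and 10.4% of all 8184 genes tested. Without both deepest libraries these were 9 higher and 2 lower, beside 1001 and 1374 of the 8184. Arms were separate upward for 10 and downward for 1, HOXC8, beside 13.2% and 15.6% of all genes tested. The cluster medians were 0.33 for HOXA, 0.13 for HOXB, 0.46 for HOXC and 0.39 for HOXD. HOXD4, HOXB4 and HOXC11 were chosen after their values were seen, as the next in size among members with a mean of at least 50. HOXD4 had 30.2, 35.4 and 24.9 against 60.7, 109, 77.5 and 147, HOXB4 had 735, 1060 and 992 against 1390, 2304, 1922 and 2072, and HOXC11 had 104, 214 and 158 against 225, 385, 325 and 329. In HOXB4 and HOXC11 the deepest library of each arm was the lowest of its arm. HOXC11, HOXB4 and HOXD4 did not pass in the authors' deposited table, at adjusted p of 0.0921, 0.0527 and 0.441.

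**Figure D5:**
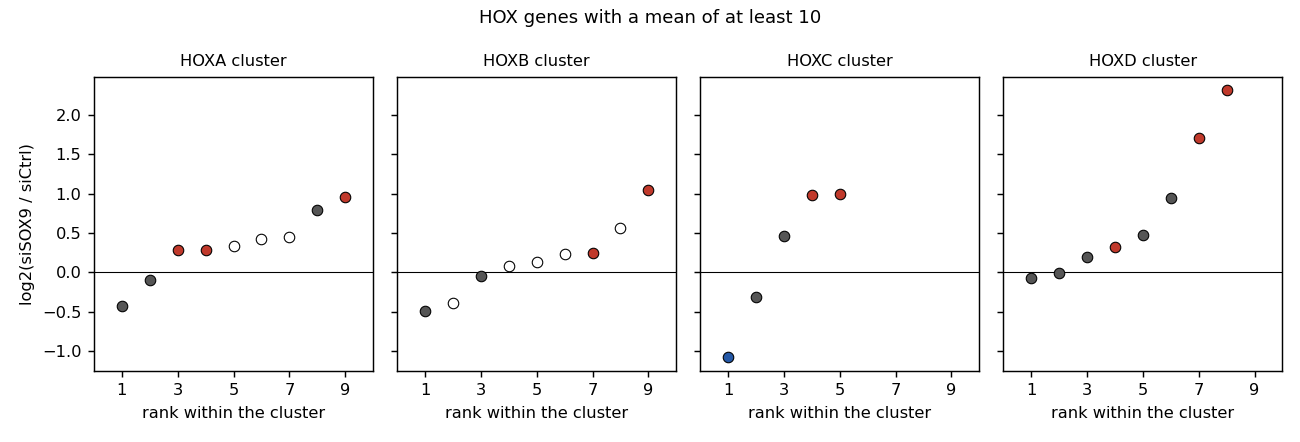
The log2 ratio of each of the 31 HOX genes with a mean of at least 10, by cluster (panels) and ordered by value within it (horizontal axis). Red and blue points are genes whose libraries did not overlap, higher and lower, grey points overlapped, and open points had no recovered reads. Members above 0 number 7 of 9 in HOXA, 6 of 9 in HOXB, 3 of 5 in HOXC and 6 of 8 in HOXD.

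Of 228 genes in 7 chromatin and polymerase classes 1 was called higher (0.439%) and 4 lower (1.75%), and of 649 in 10 classes of proteostasis and translation 7 higher (1.08%) and 10 lower (1.54%), beside 1.19% and 2.27% of all genes. Single classes differed: of 26 SWI/SNF genes 2 were called (7.69%), while Polycomb subunits, Mediator subunits and histone lysine methyltransferases and demethylases had 0. SMARCD1 and SMARCB1, subunits of the SWI/SNF remodeller, fell from means of 6466 and 6711 to 3729 and 4617, and the authors' deposited table lists adjusted p of 3.55e-04 and 0.0417. KAT6B, a histone acetyltransferase, and POLR3GL, a subunit of RNA polymerase III, had log2 ratios of -0.70 and -0.96, and the demethylation glycosylase TDG had 0.55. None of 47 proteasome, 39 tRNA synthetase or 16 peroxin genes was called. The autophagy receptor SQSTM1 rose from a mean of 25440 to 48107 and GABARAPL1, an ATG8-type protein, from 4070 to 6403, and the authors' deposited table lists adjusted p of 1.39e-04 and 0.012. They were the only called members of 41 autophagy genes (4.88%). Of 16 other members with recovered reads limma-voom called 1 higher and 4 lower, beside 7.44% and 10.4% of all 8184 genes tested. Translation factors had 2 called in each direction, with EIF5A2 up from 2145 to 4665 and EIF4E3, a cap-binding protein, down from 867, 686 and 614 to 418, 358, 268 and 296. NUP210, a membrane nucleoporin, fell from a mean of 14563 to 6901.

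Of 53 myosin genes 5 were called lower (9.43%) and 1 higher (1.89%), beside 2.27% and 1.19% of all genes, while the median was 0.04. MYO15B, an unconventional myosin gene, fell from 2130, 2574 and 2314 to 788, 1023, 885 and 765, with a limma-voom estimate of -1.44 ± 0.12 and an adjusted p of 8.98e-05. MYO19, of mitochondrial movement, MYO10, of filopodia, and MYH9, the non-muscle heavy chain, had log2 ratios of -0.72, -0.67 and -0.52. DYNC1I1, an intermediate chain of cytoplasmic dynein, rose from 106, 117 and 83 to 280, 273, 241 and 259 and was 1 of 3 called higher among 88 tubulin and dynein genes. A class of 242 genes chosen by symbol, which joins ciliary and centrosomal genes with coiled-coil (CCDC) and TTC genes of other functions, had 1 called higher (0.413%) and 4 lower (1.65%), below the shares of all genes. The called members were the transition zone genes TMEM216 and TMEM231, at -0.86 and -0.90, CCDC50 and TTC7A, which are not known as ciliary genes, at -1.17 and -0.61, and CEP112 at 0.64. Of 55 TRIM genes, many of them E3 ubiquitin ligases, 4 were called lower (7.27%) and 0 higher, while the median of 45 was -0.06. Limma-voom called 4 of 28 recovered TRIM members higher and 5 lower, beside 7.44% and 10.4% of all 8184 genes tested. Without both deepest libraries it called 6 higher and 5 lower, so recovered members went both ways. TRIM29 had 298, 400 and 494 in siCtrl and 97, 133, 108 and 149 in siSOX9 (limma-voom -1.69 ± 0.21, adjusted p = 6.56e-04), and TRIM2, TRIM58 and TRIM47 had log2 ratios of -0.92, -0.83 and -0.69. Among these named genes all arms were separate where libraries were recovered.

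Non-coding and uncharacterised transcripts were called higher more often than lower where RefSeq types them as long non-coding. Of 1062 lncRNA genes 11 were called higher (1.04%) and 3 lower (0.282%), with a median of 0.11 over 517, against 198 (1.22%) and 419 (2.57%) of 16285 protein-coding genes and a median of 0.01 over 12490. The lncRNA share called higher was thus below the protein-coding one, and the types differed mainly in the share called lower. A smaller part of the lncRNA genes reached a mean of 10, and the balance of calls varied with level. The types were not matched for level. Among 436 antisense transcripts 5 were called higher (1.15%, close to the 1.19% of all genes) and 0 lower. PCBP1-AS1 rose from 754, 806 and 751 to 1461, 1640, 1350 and 1766, while the mean of PCBP1 on the other strand went from 32957 to 22856. HOXA11-AS rose from 676, 1064 and 893 to 1347, 2005, 1727 and 1869, beside a log2 ratio of 0.33 for HOXA11, and RASSF8-AS1 rose with 0.90 beside 0.35 for RASSF8. SNAI3-AS1 rose with 0.65 beside -0.70 for SNAI3, which was not called. Over 222 such pairs with both genes at a mean of 10, the medians were 0.12 for the antisense and -0.01 for the sense gene. Whether reads were counted by strand is not given in the sources used here, so reads of partners that overlap may be mixed.

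LINC00511 fell from 210, 230 and 255 to 117, 65.5, 60.7 and 85. Genes known only as open reading frames were called lower more often than higher, at 11 against 3 of 505, as were TMEM genes at 9 against 1 of 220 and FAM and KIAA genes at 10 against 3 of 382. The share called lower was close to the 2.27% of all genes for open reading frames (2.18%) and for FAM and KIAA genes (2.62%). For TMEM genes it was 4.09%. C1orf116 fell from 1109, 1252 and 1295 to 431, 527, 463 and 400 (limma-voom -1.41 ± 0.11, adjusted p = 7.54e-05).

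Among microRNA loci and host transcripts 1 of 156 was called higher and 1 lower (0.641% each, beside 1.19% and 2.27% of all genes). Their mature sequences are shown because the libraries hold polyadenylated RNA, in which reads at a locus come from its host or precursor and do not measure the mature miRNA. The locus MIR614 lies within the span of GPRC5A on chromosome 12 in RefSeq (GRCh38.p14), and MIR22HG on chromosome 17 is the host of MIR22. Capitals mark the seed, bases 2 to 8, in RefSeq's mature sequences, at chr12:12915882-12915904 (plus strand) and chr17:1713914-1713935 and chr17:1713952-1713973 (minus strand).
hsa-miR-614: gAACGCCUguucuugccaggugg
hsa-miR-22-3p: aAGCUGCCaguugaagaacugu
hsa-miR-22-5p: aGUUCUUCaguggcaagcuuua
The seeds of the 3 sequences differ. MIR614 reads fell from 133, 99.4 and 102 to 50.6, 54.3, 45.5 and 43.5, a log2 ratio of -1.20 beside -1.47 for GPRC5A. MIR22HG rose from 331, 324 and 328 to 552, 584, 598 and 632, with a limma-voom estimate of 0.83 ± 0.09 and an adjusted p of 3.65e-04.

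The knockdown of Y14 in the same cells, which has its own siCtrl samples, was set beside it. In it 9.16% of 17706 genes with reads were called in either direction in the authors' deposited table. Of the 650 genes called after SOX9 knockdown 96 were also called there (14.8% of the SOX9 calls and 5.92% of the Y14 calls), 57 with the same sign and 39 with the opposite one. ABCG2, called higher with siSOX9, was lower with siY14 in the authors' deposited table (log2 -0.65, adjusted p = 0.0108), and ACSL6 likewise (-1.06, 2.68e-04). HR, VILL and SLC2A12 were called lower in both, with Y14 log2 values of -1.23, -0.97 and -1.11 in the authors' deposited table. FUT3, ST6GALNAC1, INHBB, KCNE3 and TGFB3 had adjusted p of 1, 0.937, 0.0557, 0.887 and 0.638 there. Whether the effects of the SOX9 and Y14 knockdowns differ was not tested gene by gene, and the tables were normalised separately.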

How the data were processed

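RNA of DLD-1 cells was sequenced from polyadenylated transcripts with stranded libraries, per the labels. The submitters' processing notes name the build hg19 and the tools DESeq, HTSeq, SAMtools, Bowtie, TopHat2 and HISAT2, with versions and roles not given in the sources used here. Per the file headers the deposited values are arm means, a signal of read counts divided by size factors. Per the file headers the authors also deposited the fold (ratio of arm means), its log2, and raw and adjusted p-values. Single libraries have no column, and 0 columns with values per sample went unused. The planned test on counts was therefore replaced by the authors' adjusted p (0.05) and the log2 ratio of their means.

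Each arm mean is a sum of whole reads with 1 weight per library, printed to 15 digits. Sets of reads giving the printed mean were searched, and a gene was kept where 1 set was left. On simulated data 400 of 400 sets per arm were right, and 0 of 335 (siCtrl) and 0 of 338 (siSOX9) means that were not whole-read sums were accepted. The simulated means were drawn around levels up to 2000, so recovery at higher means was not tested. Some real means gave no set, such as 38 of 2373 siSOX9 means above 1000 and up to 2000, which no simulated mean did. Sets with a wide spread were not searched at high means, so errors of those genes can be too small. In R 4.3.3, limma 3.58.1 (voom, the authors' size factors, Benjamini-Hochberg) was run on the 8184 recovered genes whose mean was 10 or more. Tested on simulated counts with the size factors and mean levels of 8184 genes, the calls held 94 of the 100 genes with a 2-fold change. They held 100 of the 100 with a 4-fold change, with 4 false among 198 calls. The simulated libraries were independent, with the same dispersion for every gene and no deviation shared by the deepest libraries. The real libraries differ in this, so these shares need not hold for them. Intervals cover these libraries only.

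The 82 gene classes and the members were chosen with earlier results of these data known. Genes were named by a rule: in each class up to 4 called genes per direction with the largest log2 ratio and a mean of at least 50, and over all genes the 10 largest per direction with that mean, leaving out a list of 54 genes already known from earlier results. Genes outside it were added as remaining called members or where said. RefSeq types matched 96.6% of genes. Alternatives were other filters, scaling, pseudocounts, leaving out each library, and, chosen after seeing the data, leaving out both deepest libraries and removing a trend with GC content and length. A few genes that these rules select are not reported here.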

Additional observations from a re-analysis of the deposited data

Results flagged for a closer look

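Among the 162 genes with recovered reads that were chosen by the naming rule, the highest and the lowest of the 4 siSOX9 libraries were compared with the rest. For 6 genes 1 library lay apart from the other 3, with a gap above Dixon's critical value for the share of the whole range. Chance alone gives about 1 such case in 20 groups. SLC4A5, the bicarbonate cotransporter, had its lowest value in library a (122 against 137 to 138), a gap of 0.914 of the range. ACSL6 and WASL, an activator of actin branching, had their highest value in library a (596 against 456 to 473, and 2371 against 1927 to 1997), with gaps of 0.877 and 0.842. IGSF3 and VILL had their lowest value in library d (603 against 709 to 730, and 85 against 121 to 126), with gaps of 0.838 and 0.877. TMEM231 had its highest value in library d (414 against 348 to 356), a gap of 0.891. In all 6 genes every siSOX9 library still lay on the same side of every siCtrl library.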

How the results depend on the processing

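No paired analysis was possible because the recovered libraries carry no sample name or replicate number, and a term for depth class, read from the data, took the place of a block on the numbers. The 224 genes called higher and 426 lower became 249 and 464 when p-values were adjusted over genes at a mean of 10 or more, 116 and 149 with at least a 2-fold ratio, and 609 and 850 with limma-voom on recovered reads. The limma-voom counts became 623 and 838 with median-ratio size factors. With depth class as a term they rose to 1896 and 1945, where all 162 recovered genes of the naming rule kept their call and their median SE went from 0.14 to 0.09 (log2), and without the deepest library of each arm to 1001 and 1374. They were 782 and 1036 with the trend of GC content and length removed. Leaving out single libraries gave 344 to 845 genes higher and 596 to 1008 lower. The count of higher genes moved by over 1.5 times without siCtrl library a (344), siCtrl library c (398) or siSOX9 library d (388), and the cause was not tested.

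All 162 genes chosen by the naming rule that had recovered reads kept their direction under each setting run. Without siCtrl library a 8 of them no longer passed in limma-voom: FBXW10, SLC35D3, SCNN1D, PNPLA7, CYP24A1, DNAJB5, RAB30 and C2orf88, at adjusted p of 0.109, 0.099, 0.227, 0.0511, 0.0511, 0.0704, 0.13 and 0.0529. SCNN1D also failed without siCtrl library c, siSOX9 library b or d (0.0541, 0.0572 and 0.0578), and without both deepest libraries (0.154). Over recovered members, medians of 79 classes shifted by a median of 0.02 when 1 library was left out. The largest shift was that of Septins, from -0.11 to -0.46 without siCtrl library a. The medians of HOX cluster genes stayed between 0.22 and 0.35, those of Eph receptors and ephrins between -0.27 and -0.19, and those of the TGF-beta and activin pathway between -0.42 and -0.18 (-0.38 with all libraries), the last without siSOX9 library a. Genes with arm means above about 2000 had no recovered reads in most cases, so their spread between libraries is unknown.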

Other observations

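Several genes outside the classes described above also changed. The annexins, which bind membranes in response to calcium, went apart: ANXA4 fell from a mean of 5373 to 2530 and ANXA6 rose from 2126 to 3502. RGS2, which shortens G protein signals, rose from 134, 124 and 125 normalised counts in the siCtrl libraries to 227, 251, 238 and 303 in the siSOX9 libraries, with a limma-voom estimate of 0.91 ± 0.13 (SE, log2) and an adjusted p of 0.00149. CYBRD1, a ferric reductase of the duodenum, fell from 489, 509 and 496 to 301, 280, 239 and 257, while FECH, which inserts iron into haem, rose from a mean of 4810 to 7482. Among vesicle genes SNX18, a sorting nexin, fell from 1064, 1155 and 1050 to 474, 526, 512 and 487, and RAB3B, a GTPase of regulated secretion, from 1277, 1437 and 1322 to 700, 690, 765 and 607. The arms were separate for each gene with library values.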
